A study of Mus musculus with 16 samples.

Results

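The effect of Sin3B loss on cells held under interferon-γ (IFNγ) was read from 6 of the 16 RNA-seq libraries deposited, namely the 3 libraries of KPC1199 cells carrying a Sin3B guide RNA (Sin3Bsg1) and the 3 of cells carrying a non-targeting control guide (sgCtrL), all given IFNγ. KPC1199 is a mouse pancreatic ductal adenocarcinoma line, derived from a genetically engineered mouse. The study asked how Sin3B, a corepressor subunit, governs what the tumour cells make for T cells to respond to. The other 10 libraries are the same guides cultured without IFNγ in the same experiment (3 each) and in a separate untreated experiment (2 each), and they enter below only where the response without the cytokine is set beside the response with it.

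The cells in all 6 libraries received IFNγ at 10 ng/ml for 24 h, so the comparison is of genotypes within the cytokine and not of the cytokine itself. The control columns carry the name lacZ and were taken as the control guide. Both lines were made with lentiviral lentiCRISPR v2, which carries Cas9 and the guide together, and were selected in puromycin. Sin3Bsg1 is a single guide in a single cell line, and no source used here says whether the line is a clone or whether the 3 libraries came from separate cultures, so the p-values measure the spread between these libraries, which may be technical. In cultured cells, as in any bulk RNA, more cells of a kind and more RNA per cell cannot be told apart.

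SIN3B is a scaffold protein without enzymatic activity that carries the histone deacetylases HDAC1 and HDAC2 to promoters, where removal of acetyl groups from histones lowers transcription. It shares most partners with its paralogue SIN3A and is known for holding down cell-cycle genes when cells leave the cycle. IFNγ binds its receptor, activates the kinases JAK1 and JAK2, and through IRF1 among other factors turns on chemokines that draw T cells, the antigen-presentation machinery, guanylate-binding proteins and the checkpoint ligand PD-L1. MHC class II genes are reached through a further step, since they need the coactivator CIITA, which IFNγ induces in epithelial cells.

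The guide cuts near the start of the Sin3b reading frame and is printed here with the 3 genomic bases after it, the PAM that Cas9 needs, in capitals.
Sin3Bsg1: tggctcccgctggggtcgttCGG
In GRCm39 the guide matched chr8:73449982-73450001 on the + strand, inside coding exon 1 of the 19 exons of Sin3b (chr8:73449880-73484833), and matched nowhere else on that chromosome.

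Sin3b RNA was measured at 80.4, 84.3 and 83.9 CPM in sgCtrL and 33.6, 37.7 and 35.5 CPM in Sin3Bsg1, where CPM is the count divided by the TMM-scaled library total, on the usual scale. Every Sin3Bsg1 library was below every sgCtrL library, and the mean stood at 42.98% of the control (log2 fold change -1.22 ± 0.052, adjusted p = 5.22e-10, edgeR's quasi-likelihood test with Benjamini-Hochberg adjustment over 14913 genes, as for all adjusted p-values below, with the standard error after ±). RNA remained in the Sin3Bsg1 libraries, and counts over the whole gene do not tell whether protein is made from it. In the list of Sin3 complex members, 1 of 24 tested members rose (Kdm5b) and 4 fell (Sin3b, Sinhcaf, Gatad1 and Hdac2), at a median log2 fold change of -0.022. The shares were 4.167% higher and 16.67% lower, beside 8.62% and 7.9% over all genes tested. Sinhcaf, a subunit of SIN3-HDAC complexes, was at 28.8, 24.3 and 29.8 CPM in sgCtrL and 12.3, 11.7 and 13.2 CPM in Sin3Bsg1 (log2 fold change -1.15 ± 0.089, adjusted p = 2.29e-07). Smaller falls were measured for Hdac2, the deacetylase (-0.23 ± 0.055), and for Gatad1 (-0.27 ± 0.062), and Kdm5b, a histone H3 lysine 4 demethylase, rose by 0.24 ± 0.048 on the log2 scale. The paralogue Sin3a did not pass the test, at 109, 98.6 and 97.3 CPM in sgCtrL and 98.4, 96.1 and 95.9 CPM in Sin3Bsg1 (log2 fold change -0.072 ± 0.05).

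The 6 libraries held 21018904 to 27056813 counts each. One control library, sgCtrL replicate 1, stood apart from the other two: the chi-square of its counts against theirs averaged 23.3 and 19.5 over genes, compared with 4.12 between the other pair and 3.51 to 9.65 among the Sin3Bsg1 libraries. Genes of under 500 bases were lower in it, with a median log2 ratio of -0.64 to the other control libraries, and Sin3Bsg1 replicate 1 showed the same at -0.45.

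With IFNγ, 2464 of 14913 genes tested (16.5%) differed between Sin3Bsg1 and sgCtrL at an adjusted p under 0.05. Of these, 1286 (8.62%) were higher in Sin3Bsg1 and 1178 (7.9%) were lower, so genes fell about as often as they rose. These 2 shares are the background for every count of list members given here. A list near them moved no more often than genes at large. Most differences were small: the median fold was 1.31 among the genes that rose and 1.26 among those that fell, while 220 genes (1.48%) rose and 155 (1.04%) fell by at least 2-fold. The 3 libraries of one group did not overlap the 3 of the other for 1268 of the genes that rose and 1155 of those that fell, where 30.4% of all genes tested did not overlap. At the edge of the threshold, Prkacb was just inside (log2 fold change -0.14, adjusted p = 0.049956) and Sphk1 just outside (-0.36, adjusted p = 0.0500747). Left without sgCtrL replicate 1, the test called 1765 genes higher and 1180 lower. Fitting the 6 libraries by themselves, without the 6 cultured without IFNγ to share the estimate of spread, called 759 higher and 741 lower. Among genes given below that no single library decides, Gatad1, Cd47, Csf1, Gclc, Insig1, Pdgfrb and Socs3 lost their call in that fit.

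**Figure D1:**
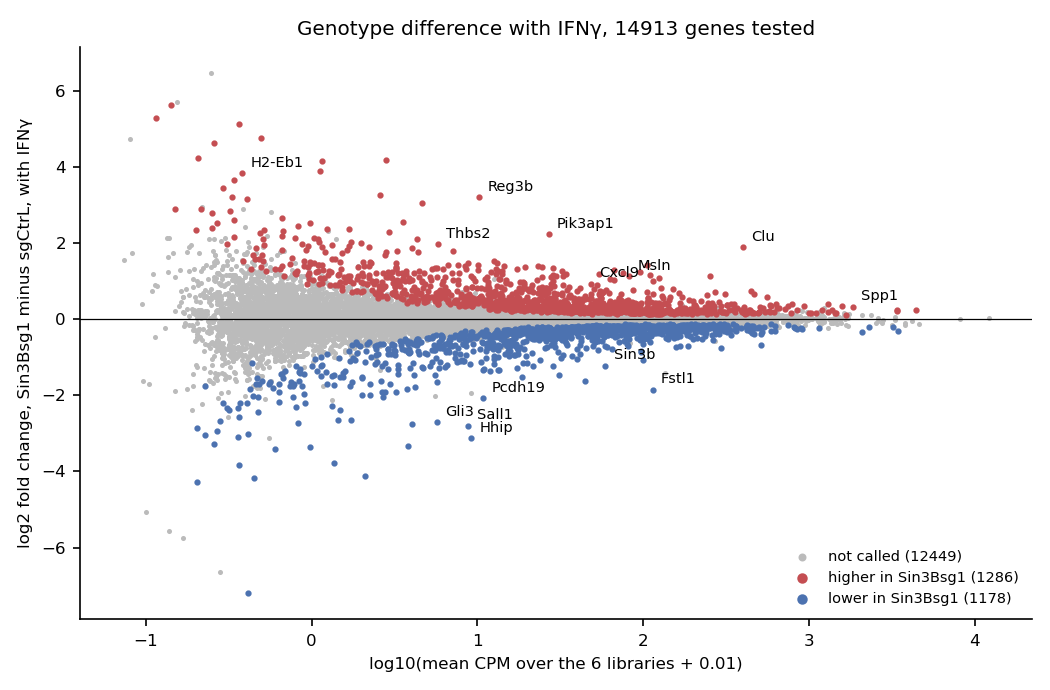
Each point is 1 of 14913 genes, with the log10 of its mean CPM over the 6 libraries with IFNγ on the x axis and its log2 fold change, Sin3Bsg1 over sgCtrL, on the y axis. Coloured points are the 1286 genes called higher and the 1178 called lower, which lie on both sides of 0 at all levels of expression.

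Among genes with a mean of at least 5 CPM over the 6 libraries, the largest rise was of Reg3b, an antimicrobial lectin that inflamed pancreas and gut epithelium secrete. It was at 1.14, 3.02 and 1.67 CPM in sgCtrL and 16.7, 19.6 and 19.5 CPM in Sin3Bsg1, a 9.21-fold rise (log2 fold change 3.204 ± 0.20, adjusted p = 2.6e-08). Pik3ap1, an adaptor that links receptors to phosphoinositide 3-kinase, was at 11.1, 7.89 and 9.55 CPM in sgCtrL and 46.6, 44.6 and 41.6 CPM in Sin3Bsg1 (log2 fold change 2.23 ± 0.10, adjusted p = 1.02e-09). Both genes were separated by a wide gap, the lowest Sin3Bsg1 library lying several times above the highest control. Thbs2, a matrix glycoprotein that limits angiogenesis, was at 1.84, 2.42 and 2.703 CPM in sgCtrL and 8.94, 8.88 and 9.79 CPM in Sin3Bsg1 (log2 fold change 1.98 ± 0.12, adjusted p = 1.74e-08). Clu, which encodes the extracellular chaperone clusterin, was at 188, 164 and 154 CPM in sgCtrL and 627, 621 and 641 CPM in Sin3Bsg1 (log2 fold change 1.903 ± 0.061, adjusted p = 3.63e-11). It is by far the most abundant of the 15 largest rises. All 15 were chosen among genes whose groups did not overlap, so the lack of overlap is not a finding. Col1a1, the α1 chain of type I collagen, was at 6.46, 6.35 and 6.397 CPM in sgCtrL and 17.4, 20.7 and 17.7 CPM in Sin3Bsg1 (log2 fold change 1.54 ± 0.088, adjusted p = 9.18e-09). The remaining 10 among the 15 largest rises were Cd74, the signalling adaptor Grb7, the tight-junction scaffold Tjp3, the decoy receptor for RANKL Tnfrsf11b, the brush-border protocadherin Cdhr5, the transcription factor Foxf1, and Hook1, Sned1, Sult1c2 and Unc13b. Their log2 fold changes ran from 1.39 for Cdhr5 to 1.78 for Cd74. None of the 15 lost its call when any single library was left out.

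At the same minimum of 5 CPM, the largest fall was of Hhip, a membrane protein that binds and sequesters hedgehog ligands and is itself a target of the hedgehog pathway. It was at 18.05, 13.8 and 17.3 CPM in sgCtrL and 2.05, 1.49 and 2.104 CPM in Sin3Bsg1, an 8.68-fold fall (log2 fold change -3.12 ± 0.16, adjusted p = 2.2e-09). Gli3, the pathway's transcription factor that acts mostly as a repressor, was at 8.998, 9.93 and 10.7 CPM in sgCtrL and 1.88, 1.49 and 1.16 CPM in Sin3Bsg1 (log2 fold change -2.705 ± 0.16, adjusted p = 1.56e-08). Neither pair of groups overlapped, which the rule for choosing the 15 falls required. Sall1, a zinc-finger transcription factor that recruits the NuRD corepressor, was at 15.4, 15.03 and 15.8 CPM in sgCtrL and 2.26, 1.82 and 2.58 CPM in Sin3Bsg1 (log2 fold change -2.795 ± 0.12, adjusted p = 6.2e-10). Pcdh19, a protocadherin of cell adhesion, was at 17.2, 19.2 and 16.2 CPM in sgCtrL and 5.096, 4.48 and 2.92 CPM in Sin3Bsg1 (log2 fold change -2.07 ± 0.14, adjusted p = 6.02e-08). Fstl1, a secreted glycoprotein related to follistatin, was at 185, 173 and 179 CPM in sgCtrL and 49.04, 49.1 and 50.5 CPM in Sin3Bsg1, the most abundant of the 15 (log2 fold change -1.85 ± 0.061, adjusted p = 3.63e-11). Each control library stood above each Sin3Bsg1 library in all of them, as that rule required. Adamts5, the aggrecan-cleaving protease, was at 18.05, 21.4 and 18.8 CPM in sgCtrL and 7.895, 7.55 and 7.77 CPM in Sin3Bsg1 (log2 fold change -1.33 ± 0.13, adjusted p = 4.2e-06). The others were the basophil protease Mcpt8, the tumour suppressor Rassf2, the mitochondrial methyltransferase Etfbkmt, fetuin-B (Fetub), the secreted protein Fjx1, and Btbd11, Dennd5b, Fam171b and Olfml2b. Their log2 fold changes ran from -1.66 for Dennd5b to -1.299 for Btbd11. All 15 kept their call without any single library.

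**Figure D2:**
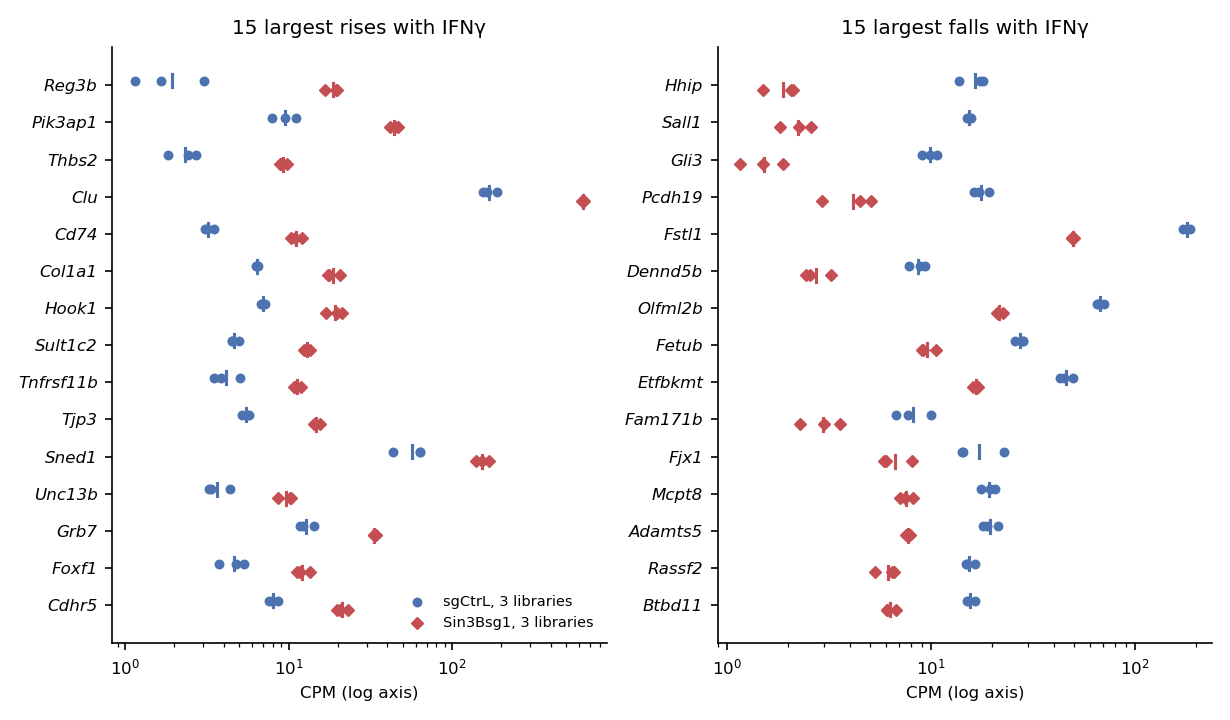
CPM of the 15 largest rises and the 15 largest falls in each of the 6 libraries with IFNγ, on a log axis, with a tick at each group's mean. The points of the 2 groups do not overlap for any of the 30 genes, which the rule for choosing them required, and the fold runs from 2.62 to 9.21 among the rises and from 2.46 to 8.68 among the falls.

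In CPM rather than folds, the called genes without overlap that gained the most were the glycolytic enzymes Gapdh and Pkm, Clu, the keratins Krt8 and Krt18, the secreted phosphoprotein Spp1, Gbp2, the iron carrier Trf, the sulphate transporter Slc26a2 and Tpt1. Gapdh, which is often used as a reference transcript, was at 4135, 4146 and 3833 CPM in sgCtrL and 4818, 4707 and 4827 CPM in Sin3Bsg1 (log2 fold change 0.24 ± 0.046, adjusted p = 0.00159). Pkm was at 3137, 3206 and 3078 CPM in sgCtrL and 3742, 3664 and 3685 CPM in Sin3Bsg1 (log2 fold change 0.24 ± 0.032, adjusted p = 8.18e-05). Lack of overlap was required of both genes, and their folds were close to 1. The 10 called genes that lost the most were Fth1 (the ferritin heavy chain), Lratd2, Emb, Pla2g7, Tgtp2, Mmp13, Hspd1, Gnas, Hnrnpab and Hnrnpa1. Pla2g7, a secreted phospholipase that degrades platelet-activating factor, was at 661, 606 and 623 CPM in sgCtrL and 380.0, 400.3 and 404 CPM in Sin3Bsg1 (log2 fold change -0.67 ± 0.046, adjusted p = 6.32e-08). Emb, embigin, a partner of monocarboxylate transporters, was at 374, 369 and 368 CPM in sgCtrL and 215, 215 and 229 CPM in Sin3Bsg1 (log2 fold change -0.75 ± 0.04, adjusted p = 4.98e-09). Of these 20, Gbp2 lost its call without sgCtrL replicate 2 or 3 or Sin3Bsg1 replicate 1, 2 or 3, Gnas without Sin3Bsg1 replicate 1, 2 or 3, Hnrnpab without sgCtrL replicate 1 or Sin3Bsg1 replicate 1, 2 or 3 and Lratd2 without Sin3Bsg1 replicate 3. Gapdh, Tpt1, Fth1, Hnrnpa1, Krt8 and Krt18 have processed copies in the genome whose reads the counting could split.

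Cxcl9 and Cxcl10, the IFNγ-induced ligands of CXCR3 on T cells, were both higher in Sin3Bsg1. Cxcl9 was at 33.5, 35.3 and 30.7 CPM in sgCtrL and 61.4, 65.6 and 63.1 CPM in Sin3Bsg1, a 1.91-fold difference (log2 fold change 0.93 ± 0.068, adjusted p = 2.61e-06), and had no counts in any of the libraries without IFNγ. Cxcl10 was at 112, 102 and 94.4 CPM in sgCtrL and 132, 140.5 and 139 CPM in Sin3Bsg1 (log2 fold change 0.42 ± 0.071, adjusted p = 0.000704). The Sin3Bsg1 libraries lay above all the control libraries for both, by a larger ratio for Cxcl9. Cx3cl1, fractalkine, which draws CX3CR1-bearing lymphocytes and monocytes, was at 47.9, 43.8 and 43.3 CPM in sgCtrL and 66.7, 67.8 and 64.2 CPM in Sin3Bsg1 (log2 fold change 0.56 ± 0.054, adjusted p = 2.66e-06). Across the chemokine list, 5 of 19 tested members rose (Ccl20, Cxcl9, Cx3cl1, Cxcl10 and Cxcl16) and 1 fell (Ccl9), at a median log2 fold change of 0.088. The median over all genes tested was 0.0036. Ccl20, the ligand of CCR6, lost its call without Sin3Bsg1 replicate 3, and Ccl9 lost it without any 1 of the control libraries or Sin3Bsg1 replicate 1 or 3.

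Among MHC class II genes, 7 of 8 tested members rose and 0 fell, at a median log2 fold change of 2.04. None of them was called without IFNγ, but Ciita, Cd74, H2-Aa, H2-Ab1, H2-DMb1 and H2-Eb1 reached the filter on low counts in no library there. With so few counts, the lack of a call without IFNγ cannot decide whether the genotype effect depends on IFNγ. In the test of a difference between the effects with and without IFNγ, 0 of the 8 passed. Ciita, the coactivator that these genes need, was at 5.02, 6.12 and 6.04 CPM in sgCtrL and 13.2, 13.7 and 11.1 CPM in Sin3Bsg1 (log2 fold change 1.14 ± 0.20, adjusted p = 0.000893). Cd74, the invariant chain that escorts class II molecules, was at 3.48, 3.06 and 3.15 CPM in sgCtrL and 10.9, 11.99 and 10.4 CPM in Sin3Bsg1 (log2 fold change 1.78 ± 0.19, adjusted p = 7.23e-06). H2-Ab1, a β chain, was at 0.298, 0.567 and 0.721 CPM in sgCtrL and 3.300, 1.86 and 3.26 CPM in Sin3Bsg1, which is low. Every Sin3Bsg1 library was above every control library in Ciita and Cd74. H2-DMb1, a chain of the H2-DM exchanger that loads peptide, was at 1.14, 1.13 and 0.676 CPM in sgCtrL and 4.595, 4.72 and 5.33 CPM in Sin3Bsg1 (log2 fold change 2.301 ± 0.39, adjusted p = 0.000578), and its partner H2-DMa was at 2.29, 2.95 and 2.12 CPM in sgCtrL and 4.55, 5.13 and 6.01 CPM in Sin3Bsg1 (log2 fold change 1.08 ± 0.20, adjusted p = 0.00106). Of the 7 that rose, H2-Aa, H2-Ab1 and H2-Eb1 passed the filter on low counts only through the Sin3Bsg1 libraries with IFNγ, where they are high. So nothing is read from the calls of these 3 genes or from the list's count and median over them. Of the other 5 tested members, 4 rose. H2-Aa had 2, 1 and 0 counts in sgCtrL and 12, 15 and 17 in Sin3Bsg1. H2-Eb1 had 1, 1 and 1 counts in sgCtrL and 18, 16 and 16 in Sin3Bsg1. No ratio or interval is given for them, since they were tested only because Sin3Bsg1 was high. The tested member that did not rise was Ifi30 (log2 fold change -0.16). It had up to 968 counts per library in sgCtrL and 900 in Sin3Bsg1, beside 162 and 340 for Ciita. With Ifi30 included, the summed level of the list was 50.1 to 56.6 CPM in sgCtrL and 71.0 to 75.1 CPM in Sin3Bsg1. That sum is therefore not the level of the members that rose, and no fold is read from it.

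Promoters of chemokine and class II members that rose were searched for known letters, and those with a match are shown. Of 12 such members 8 had a window, and 4 of these held a match (H2-Aa, H2-Eb1, Cxcl9 and Cxcl10) while 4 held neither motif (Ccl20, Cx3cl1, H2-DMa and H2-DMb1). Cd74, Ciita, Cxcl16 and H2-Ab1 had no window. H2-Aa, H2-Ab1 and H2-Eb1 are among the 12 only through calls from which nothing is read, so no share is drawn from this tally. RefSeq promoter windows of GRCm38.p6 were read from 250 bases before to the base before the gene's start, and capitals mark the Y box CTGATTGG, the binding element of the factor NF-Y, or the interferon-stimulated response element (ISRE), TTTC, any 2 bases and TTTC, searched on both strands.
H2-Aa: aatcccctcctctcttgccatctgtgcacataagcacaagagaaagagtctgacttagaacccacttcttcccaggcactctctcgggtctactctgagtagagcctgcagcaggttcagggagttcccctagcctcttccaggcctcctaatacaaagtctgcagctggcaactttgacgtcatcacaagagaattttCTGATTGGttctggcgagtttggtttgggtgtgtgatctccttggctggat
H2-Eb1: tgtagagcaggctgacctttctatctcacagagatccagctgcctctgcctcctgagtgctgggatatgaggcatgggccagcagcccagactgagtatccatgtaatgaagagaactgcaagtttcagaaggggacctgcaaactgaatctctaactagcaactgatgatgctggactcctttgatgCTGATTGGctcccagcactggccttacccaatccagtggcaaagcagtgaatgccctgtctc
Cxcl9: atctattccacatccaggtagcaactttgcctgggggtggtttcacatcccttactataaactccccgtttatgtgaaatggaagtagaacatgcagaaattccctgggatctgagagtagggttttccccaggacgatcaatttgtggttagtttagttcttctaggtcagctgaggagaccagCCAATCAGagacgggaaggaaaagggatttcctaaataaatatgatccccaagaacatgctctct
Cxcl10: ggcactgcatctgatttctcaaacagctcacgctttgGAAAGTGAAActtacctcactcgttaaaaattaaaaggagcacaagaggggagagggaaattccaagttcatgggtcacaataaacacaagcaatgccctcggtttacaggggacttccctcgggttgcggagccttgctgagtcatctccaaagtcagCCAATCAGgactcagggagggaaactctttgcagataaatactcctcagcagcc
The windows are chr17:34287824-34288073 (− strand) for H2-Aa, chr17:34305617-34305866 (+ strand) for H2-Eb1, chr5:92328080-92328329 (− strand) for Cxcl9 and chr5:92348890-92349139 (− strand) for Cxcl10. A Y box began 51 bases before the start in H2-Aa and 62 in H2-Eb1 on the gene's strand, and 65 in Cxcl9 and 54 in Cxcl10 on the opposite strand. The ISRE of Cxcl10 began 213 bases before the start, on the opposite strand. Of all 32851 promoter windows, 3.83% held a Y box and 2.98% an ISRE, so a match is a description of letters and not a bound site. The interferon-γ activated site (GAS), TTC, any 3 bases and GAA, was in 7.02% of all windows and in none of the 8.

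In the class I pathway, 8 of 25 tested members rose and 0 fell, at a median log2 fold change of 0.14, with 4 rising without Sin3Bsg1 replicate 2. H2-K1, the classical heavy chain, was at 565, 597 and 605 CPM in sgCtrL and 689, 744 and 746 CPM in Sin3Bsg1 (log2 fold change 0.30 ± 0.051, adjusted p = 0.000578). H2-Q4, a nonclassical heavy chain, was at 147, 159 and 163 CPM in sgCtrL and 214, 224 and 226 CPM in Sin3Bsg1 (log2 fold change 0.50 ± 0.053, adjusted p = 7.66e-06), and H2-T23, which encodes Qa-1, at 245, 236 and 243 CPM in sgCtrL and 314, 328 and 351 CPM in Sin3Bsg1 (log2 fold change 0.45 ± 0.055, adjusted p = 2.74e-05). Tap2, a subunit of the peptide transporter, was at 194, 182 and 185 CPM in sgCtrL and 222, 233 and 238 CPM in Sin3Bsg1 (log2 fold change 0.31 ± 0.05, adjusted p = 0.000491). All of these sat above every control library, by folds well under those of class II. Heavy-chain genes are near-identical copies, so the split of reads between H2-K1, H2-Q4 and their neighbours is uncertain.

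Genes of the interferon response outside antigen presentation did not move as a block. For guanylate-binding proteins and immunity-related GTPases, which attack vacuoles that hold microbes, 3 of 22 tested members rose (Gbp5, Gm12250 and Gbp2) and 3 fell (Gm4951, Gm4841 and Tgtp2), at a median log2 fold change of -0.093, and each share was 13.64% beside 8.62% higher and 7.9% lower over all genes tested. These counts became 0 rising without Sin3Bsg1 replicate 1, 2 or 3 and 1 without sgCtrL replicate 3 and 6 without sgCtrL replicate 1, and 6 falling without sgCtrL replicate 1. Those that fell were Gm4951 at 162, 165 and 169.8 CPM in sgCtrL and 115, 112 and 121 CPM in Sin3Bsg1 (log2 fold change -0.52 ± 0.059, adjusted p = 1.71e-05), Gm4841 (-0.35 ± 0.066) and Tgtp2 (-0.23 ± 0.056), all from clusters of near-identical genes. Among antiviral genes, 4 of 44 tested members rose (Ifit1bl1, Samd9l, Trim25 and Trim21) and 0 fell, at a median log2 fold change of 0.074, with 7 rising without sgCtrL replicate 1, where 1 also fell. The share that rose, 9.091%, was near the 8.62% over all genes tested. Ifit1bl1 was at 47.7, 40.7 and 41.8 CPM in sgCtrL and 69.1, 68.4 and 75.8 CPM in Sin3Bsg1 (log2 fold change 0.71 ± 0.08, adjusted p = 1.3e-05). Samd9l, which limits viral translation, was at 127, 114 and 116 CPM in sgCtrL and 170.2, 173 and 162 CPM in Sin3Bsg1 (log2 fold change 0.50 ± 0.058, adjusted p = 1.76e-05). Trim21 lost its call without sgCtrL replicate 2 or 3 or Sin3Bsg1 replicate 2 or 3.

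In the receptor and signalling layer, 3 of 26 tested members rose (Batf2, Ptpn6 and Irf9) and 3 fell (Socs2, Ifnar1 and Socs3), at a median log2 fold change of 0.044, with 5 rising without sgCtrL replicate 1. Each share was 11.54%, beside 8.62% higher and 7.9% lower over all genes tested. Batf2, an IFNγ-induced transcription factor that works with IRF1, was at 40.8, 38.9 and 38.5 CPM in sgCtrL and 60.9, 57.5 and 55.5 CPM in Sin3Bsg1 (log2 fold change 0.56 ± 0.066, adjusted p = 4.53e-05). Irf9, the DNA-binding part of the complex that type I interferon activates, was at 60.5, 63.6 and 59.4 CPM in sgCtrL and 75.7, 72.3 and 71.3 CPM in Sin3Bsg1 (log2 fold change 0.26 ± 0.06, adjusted p = 0.00731). Ifnar1, a chain of the type I interferon receptor, fell by 0.21 ± 0.046 on the log2 scale, and the suppressors of cytokine signalling Socs2 and Socs3 fell by 0.50 ± 0.10 and 0.18 ± 0.047. The phosphatase Ptpn6 was the remaining member that rose, and it lost its call without Sin3Bsg1 replicate 2 or 3. The IFNγ receptor chains, the kinases JAK1 and JAK2 and the factor IRF1 did not pass the test, with log2 fold changes given for Ifngr1 (-0.13 ± 0.047), Ifngr2 (-0.055 ± 0.052), Jak1 (0.0096 ± 0.05), Jak2 (0.12 ± 0.046) and Irf1 (0.063 ± 0.037).

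In the list of checkpoint ligands there were falls and no rises. That list also holds the enzyme Ido1 and the costimulatory ligand Icosl, which are not inhibitory ligands. In that list, 0 of 12 tested members rose and 4 fell (Vsir, Ido1, Icosl and Cd47), at a median log2 fold change of -0.12, with 1 rising without sgCtrL replicate 1. Ido1, which degrades tryptophan and so starves T cells, was at 69.4, 76.00 and 74.3 CPM in sgCtrL and 44.1, 42.9 and 46.98 CPM in Sin3Bsg1 (log2 fold change -0.71 ± 0.10, adjusted p = 7.56e-05). Vsir, VISTA, was at 2.29, 2.304 and 2.21 CPM in sgCtrL and 0.292, 1.09 and 0.988 CPM in Sin3Bsg1 (log2 fold change -1.51 ± 0.34, adjusted p = 0.00609). Cd47, the signal that stops phagocytosis, was at 526, 469 and 480.0 CPM in sgCtrL and 426, 429 and 437 CPM in Sin3Bsg1 (log2 fold change -0.19 ± 0.045, adjusted p = 0.00832). Groups did not overlap in any of these, though Vsir is near the low end of what was measured. Icosl was the other to fall, and its call was lost without sgCtrL replicate 2 or Sin3Bsg1 replicate 2. Cd274, which encodes PD-L1, did not pass, at 162, 180.2 and 171 CPM in sgCtrL and 169, 162 and 163 CPM in Sin3Bsg1 (log2 fold change -0.054 ± 0.05).

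**Figure D3:**
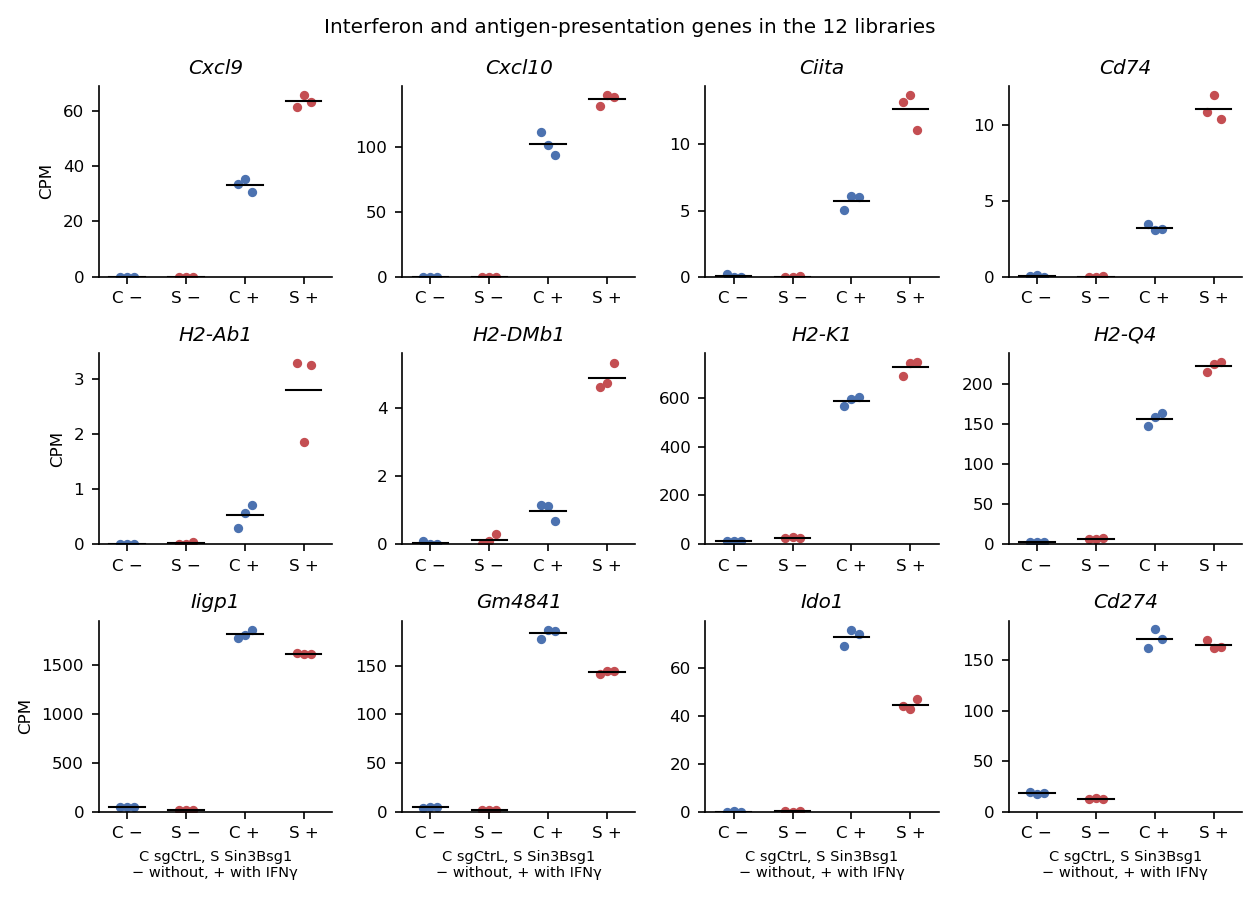
CPM of 12 interferon-response genes in the 12 libraries of the experiment, sgCtrL and Sin3Bsg1 without and with IFNγ, on linear axes from 0 with a bar at each group's mean. With IFNγ the Sin3Bsg1 points lie above the control points for Cxcl9, Cxcl10, Ciita, Cd74, H2-Ab1, H2-DMb1, H2-K1 and H2-Q4, and below them for Gm4841 and Ido1.

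Complement genes rose where they moved. Of the list, 7 of 14 tested members rose and 0 fell, at a median log2 fold change of 0.27. Cfb, factor B of the alternative pathway, was at 73.9, 66.2 and 64.2 CPM in sgCtrL and 152, 149 and 153 CPM in Sin3Bsg1, a 2.22-fold difference (log2 fold change 1.15 ± 0.054, adjusted p = 1.06e-09). C1s1, a protease of the classical pathway, was at 234, 247 and 245 CPM in sgCtrL and 377, 375 and 392 CPM in Sin3Bsg1 (log2 fold change 0.66 ± 0.047, adjusted p = 1.06e-07). C4b, which both the classical and lectin pathways cleave, was at 7.51, 7.67 and 8.15 CPM in sgCtrL and 14.2, 18.1 and 13.9 CPM in Sin3Bsg1 (log2 fold change 0.99 ± 0.12, adjusted p = 3.69e-05), and Masp1, a protease of the lectin pathway, at 1.69, 2.64 and 2.07 CPM in sgCtrL and 3.38, 4.68 and 4.896 CPM in Sin3Bsg1 (log2 fold change 0.999 ± 0.21, adjusted p = 0.00374). No control library reached a Sin3Bsg1 library in these. For cytokines, 1 of 14 tested members rose (Csf1) and 2 fell (Il33 and Il1rn), at a median log2 fold change of 0.14, with 2 rising without sgCtrL replicate 2 and 0 falling without sgCtrL replicate 1 and 1 without sgCtrL replicate 2 or Sin3Bsg1 replicate 2 or 3. Csf1, the macrophage growth factor, was at 182, 181 and 185 CPM in sgCtrL and 212, 206 and 208 CPM in Sin3Bsg1 (log2 fold change 0.19 ± 0.042, adjusted p = 0.00461), and the 2 that fell were lost without sgCtrL replicate 1 or 2 or Sin3Bsg1 replicate 3 for Il1rn and without sgCtrL replicate 1 or Sin3Bsg1 replicate 2 for Il33.

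Epithelial genes rose more often than they fell. Among keratins, 5 of 8 tested members rose (Krt20, Krt7, Krt18, Krt8 and Krt19) and 0 fell, at a median log2 fold change of 0.36. Krt20, a keratin of gut epithelium, was at 58.5, 54.7 and 57.3 CPM in sgCtrL and 129.8, 138 and 136 CPM in Sin3Bsg1, and Krt7, a duct keratin, at 20.98, 16.9 and 18.2 CPM in sgCtrL and 37.2, 44.2 and 42.2 CPM in Sin3Bsg1. Every Sin3Bsg1 library was above every control library, at 2.37-fold for Krt20 (log2 fold change 1.24 ± 0.046, adjusted p = 1.65e-10) and 2.21-fold for Krt7 (log2 fold change 1.15 ± 0.083, adjusted p = 1.21e-07). The abundant Krt8 and Krt18 rose by less (0.34 ± 0.057 and 0.39 ± 0.053), and Krt19 lost its call without sgCtrL replicate 3 or Sin3Bsg1 replicate 3. Of claudins and junction genes, 7 of 22 tested members rose and 1 fell (Cldn2), at a median log2 fold change of 0.31, with 0 falling without sgCtrL replicate 1 or 2 or Sin3Bsg1 replicate 1, 2 or 3. Tjp3, a scaffold of the tight junction, was at 5.72, 5.21 and 5.59 CPM in sgCtrL and 14.4, 14.4 and 15.5 CPM in Sin3Bsg1, and Cgn, cingulin, which ties the junction to actomyosin, at 8.601, 10.99 and 10.7 CPM in sgCtrL and 19.8, 19.2 and 19.4 CPM in Sin3Bsg1. Their groups stood well apart, with log2 fold changes of 1.43 ± 0.091 for Tjp3 and 0.94 ± 0.10 for Cgn. Cldn3 and Cldn6, claudins that seal the space between cells, rose by 0.97 ± 0.10 and 1.09 ± 0.17. Cdh1, E-cadherin, was at 85.3, 73.1 and 70.7 CPM in sgCtrL and 165, 142 and 150.1 CPM in Sin3Bsg1 (log2 fold change 0.9998 ± 0.067, adjusted p = 5.61e-08).

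Transcription factors of pancreas and foregut mostly rose where they passed the test. In that list, 8 of 17 tested members rose and 1 fell (Cdx2), at a median log2 fold change of 0.23, with 5 rising without Sin3Bsg1 replicate 1 or 2. Hnf4a, a nuclear receptor of endodermal epithelium, was at 36.2, 33.3 and 29.9 CPM in sgCtrL and 76.4, 75.3 and 73.99 CPM in Sin3Bsg1 (log2 fold change 1.18 ± 0.059, adjusted p = 2.18e-09). Gata4, a zinc-finger factor of foregut and pancreas, was at 5.92, 5.44 and 6.22 CPM in sgCtrL and 15.6, 13.4 and 14.1 CPM in Sin3Bsg1 (log2 fold change 1.298 ± 0.10, adjusted p = 2.77e-07). Each was more than 2-fold higher with no overlap. Klf5, which keeps ductal cells epithelial, was at 131, 108 and 108 CPM in sgCtrL and 183, 172 and 169 CPM in Sin3Bsg1 (log2 fold change 0.59 ± 0.069, adjusted p = 1.97e-05), and Foxa2, a pioneer factor of endoderm, at 39.5, 29.7 and 31.3 CPM in sgCtrL and 51.3, 47.2 and 45.2 CPM in Sin3Bsg1 (log2 fold change 0.52 ± 0.086, adjusted p = 0.000515). Among secretory genes of goblet and pit cells, 8 of 21 tested members rose and 2 fell (Muc5ac and Muc5b), at a median log2 fold change of 0.40. Fcgbp, a mucus gel protein, was at 0.845, 0.944 and 1.31 CPM in sgCtrL and 6.35, 6.38 and 5.497 CPM in Sin3Bsg1 (log2 fold change 2.55 ± 0.17, adjusted p = 6.32e-08). Muc13, a membrane mucin, was at 36.4, 39.02 and 39.2 CPM in sgCtrL and 95.5, 90.8 and 96.8 CPM in Sin3Bsg1 (log2 fold change 1.303 ± 0.051, adjusted p = 2.46e-10), and Reg3g, the lectin beside Reg3b, at 1.34, 2.23 and 1.22 CPM in sgCtrL and 5.72, 7.71 and 7.64 CPM in Sin3Bsg1 (log2 fold change 2.11 ± 0.21, adjusted p = 4.2e-06). Muc5ac, the gel mucin of gastric pit cells, went the other way, at 2.68, 1.78 and 1.53 CPM in sgCtrL and 0.4595, 0.888 and 0.773 CPM in Sin3Bsg1 (log2 fold change -1.48 ± 0.26, adjusted p = 0.00101). Tff2, a trefoil peptide of mucous neck cells, had no counts in the control libraries and 2, 5 and 8 in Sin3Bsg1.

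Genes of the matrix and of its remodelling split. Of metalloproteinases and their inhibitors, 3 of 27 tested members rose (Mmp28, Adamts15 and Adam8) and 10 fell, at a median log2 fold change of -0.15, with 5 rising without sgCtrL replicate 1. Mmp13, a collagenase, was at 591, 573 and 574 CPM in sgCtrL and 435, 445 and 452 CPM in Sin3Bsg1 (log2 fold change -0.38 ± 0.04, adjusted p = 5.66e-06). Mmp3, stromelysin, was at 9.99, 7.25 and 7.21 CPM in sgCtrL and 3.68, 3.997 and 3.39 CPM in Sin3Bsg1 (log2 fold change -1.13 ± 0.16, adjusted p = 0.000145), and Adamts12 at 3.13, 2.46 and 3.06 CPM in sgCtrL and 1.504, 0.929 and 1.503 CPM in Sin3Bsg1 (log2 fold change -1.13 ± 0.22, adjusted p = 0.00188). The control libraries were the higher in each. Against these, Mmp28, an epithelial metalloproteinase, was at 8.95, 10.4 and 9.91 CPM in sgCtrL and 20.8, 19.7 and 19.9 CPM in Sin3Bsg1 (log2 fold change 1.04 ± 0.073, adjusted p = 7.5e-08), and Adamts15 rose as well (0.67 ± 0.12). Collagens went both ways, as 4 of 25 tested members rose (Col1a1, Col28a1, Col4a5 and Col6a2) and 5 fell (Col12a1, Col4a4, Col16a1, Col3a1 and Col18a1), at a median log2 fold change of 0.081, with 3 falling without sgCtrL replicate 3 or Sin3Bsg1 replicate 2 or 3. Col12a1, which bridges collagen fibrils, was at 3.53, 4.53 and 3.78 CPM in sgCtrL and 1.46, 1.29 and 1.12 CPM in Sin3Bsg1 (log2 fold change -1.61 ± 0.19, adjusted p = 2e-05), opposite to Col1a1. Col28a1 and Col4a5 rose by 1.03 ± 0.22 and 0.52 ± 0.074. The list of laminins, nidogens and perlecan also holds Npnt, nephronectin, which is none of these. In that list, 5 of 12 tested members rose and 1 fell (Npnt), at a median log2 fold change of 0.20, with 2 rising without Sin3Bsg1 replicate 1 and 3 without Sin3Bsg1 replicate 2, and 0 falling without sgCtrL replicate 1 or 2 or Sin3Bsg1 replicate 2 or 3.

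Matricellular and other matrix proteins split evenly, as 7 of 26 tested members rose and 7 fell, at a median log2 fold change of 0.035. The CCN family shows it: Ccn2, the connective tissue growth factor and a target of YAP, was at 20.7, 15.4 and 16.8 CPM in sgCtrL and 38.6, 39.9 and 39.3 CPM in Sin3Bsg1 (log2 fold change 1.16 ± 0.091, adjusted p = 2.62e-07), whereas Ccn3 fell by 0.75 ± 0.075 and Ccn5 by 0.83 ± 0.10 on the log2 scale. Integrins split too, as 4 of 17 tested members rose (Itgb4, Itga7, Itgb3 and Itga6) and 4 fell (Itga8, Itgb7, Itgb5 and Itgav), at a median log2 fold change of 0.09. Itgb4, the hemidesmosome chain, was at 31.2, 26.5 and 26.9 CPM in sgCtrL and 46.7, 41.99 and 41.1 CPM in Sin3Bsg1, while Itgb7, a chain of lymphocyte homing receptors, was at 97.2, 82.3 and 78.5 CPM in sgCtrL and 58.4, 56.7 and 54.5 CPM in Sin3Bsg1. The groups did not overlap in either, and the log2 fold changes were 0.62 ± 0.069 and -0.60 ± 0.076. Itga8 fell (-0.90 ± 0.15), and Itga7 and Itgb3 rose (0.61 ± 0.11 and 0.33 ± 0.063). Among regulators of epithelial-mesenchymal transition and cadherins, 4 of 18 tested members rose (Cdh13, Cdh1, Cdh17 and Esrp2) and 3 fell (Grhl2, Twist1 and Zeb2), at a median log2 fold change of 0.039, with 1 falling without Sin3Bsg1 replicate 1. Esrp2, an epithelial splicing factor, was at 5.17, 5.86 and 5.18 CPM in sgCtrL and 8.56, 8.32 and 8.16 CPM in Sin3Bsg1 (log2 fold change 0.62 ± 0.11, adjusted p = 0.000769), and Cdh17, an intestinal cadherin, at 377, 353 and 357 CPM in sgCtrL and 582, 563 and 562 CPM in Sin3Bsg1 (log2 fold change 0.65 ± 0.041, adjusted p = 2.38e-08). Cdh13, a cadherin anchored by lipid, rose as well (1.22 ± 0.18).

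In the hedgehog list, 1 of 13 tested members rose (Dhh) and 4 fell (Hhip, Gli3, Gas1 and Smo), at a median log2 fold change of 0.037, with 0 rising without sgCtrL replicate 2 or Sin3Bsg1 replicate 2 or 3. Beside Hhip and Gli3, Gas1, a coreceptor for the ligand, was at 43.7, 36.2 and 35.9 CPM in sgCtrL and 24.4, 26.04 and 29.3 CPM in Sin3Bsg1 (log2 fold change -0.53 ± 0.086, adjusted p = 0.000401), and Smo, the transducer, at 87.8, 82.5 and 80.1 CPM in sgCtrL and 70.5, 71.7 and 67.6 CPM in Sin3Bsg1 (log2 fold change -0.25 ± 0.051, adjusted p = 0.00268). The ligand Dhh, at 0.646, 0.6799 and 0.811 CPM in sgCtrL and 1.42, 1.53 and 1.63 CPM in Sin3Bsg1, was the member that rose. Among Wnt ligands, antagonists and feedback genes, 3 of 18 tested members rose (Wnt10a, Wnt4 and Axin2) and 4 fell (Wnt5b, Sfrp1, Apcdd1 and Tcf7), at a median log2 fold change of -0.10. Sfrp1, a decoy for Wnt ligands, was at 71.9, 68.4 and 63.5 CPM in sgCtrL and 40.8, 37.4 and 38.3 CPM in Sin3Bsg1 (log2 fold change -0.81 ± 0.064, adjusted p = 2.9e-07). Apcdd1, a membrane inhibitor of Wnt, was at 133, 124 and 118 CPM in sgCtrL and 86.9, 91.2 and 84.8 CPM in Sin3Bsg1 (log2 fold change -0.51 ± 0.053, adjusted p = 5.74e-06), and the ligand Wnt5b at 4.82, 4.95 and 2.703 CPM in sgCtrL and 1.42, 0.969 and 0.945 CPM in Sin3Bsg1 (log2 fold change -1.901 ± 0.25, adjusted p = 6.19e-05). Wnt10a, another ligand, was close to 0 in the control, at 0.447, 0 and 0 CPM in sgCtrL and 2.17, 2.42 and 1.59 CPM in Sin3Bsg1, and was called higher.

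For TGF-β, activin and BMP genes, 3 of 36 tested members rose (Ltbp2, Ltbp4 and Fst) and 3 fell (Fstl1, Tgfbr3 and Tgfbr1), at a median log2 fold change of 0.032, with 5 rising without sgCtrL replicate 3. Each share was 8.333%, near those over all genes tested (8.62% higher, 7.9% lower). Tgfbr1, the signalling receptor, was at 162, 152 and 168 CPM in sgCtrL and 115, 113 and 116 CPM in Sin3Bsg1 (log2 fold change -0.49 ± 0.047, adjusted p = 2.92e-06), and the coreceptor Tgfbr3 fell too (-0.54 ± 0.064). Ltbp2 and Ltbp4, which bind to matrix microfibrils, were the higher in Sin3Bsg1, Ltbp2 at 90.1, 93.8 and 96.4 CPM in sgCtrL and 172, 170.3 and 149 CPM in Sin3Bsg1 (log2 fold change 0.81 ± 0.056, adjusted p = 7.49e-08). Of growth factors and receptors of the EGFR and FGF families, 6 of 21 tested members rose and 3 fell (Egfr, Nrg1 and Fgfr1), at a median log2 fold change of 0.27. Fgf1 was at 4.52, 5.06 and 4.28 CPM in sgCtrL and 11.7, 10.2 and 10.6 CPM in Sin3Bsg1 (log2 fold change 1.22 ± 0.10, adjusted p = 7.64e-07). Egfr was at 54.9, 60.3 and 55.1 CPM in sgCtrL and 34.8, 33.1 and 32.4 CPM in Sin3Bsg1 (log2 fold change -0.76 ± 0.078, adjusted p = 5.26e-06), Fgfr1 fell by 0.47 ± 0.05 and Erbb3, which partners with ERBB2, rose by 0.60 ± 0.10. Among axon guidance genes, 6 of 40 tested members rose and 10 fell, at a median log2 fold change of -0.10, with 3 rising without sgCtrL replicate 2 or Sin3Bsg1 replicate 1. Sema3d was at 27.2, 24.7 and 26.5 CPM in sgCtrL and 14.5, 12.9 and 12.5 CPM in Sin3Bsg1 (log2 fold change -0.97 ± 0.088, adjusted p = 1.31e-06), Sema6d fell by 1.12 ± 0.17, and the ephrin Efnb1 and Sema3b rose by 0.48 ± 0.10 and 0.42 ± 0.082. Of Hox cluster genes, 0 of 16 tested members rose and 3 fell (Hoxb8, Hoxb3 and Hoxd4), at a median log2 fold change of -0.055. Hoxb3 was at 1.19, 1.93 and 1.89 CPM in sgCtrL and 0.418, 0.525 and 0.859 CPM in Sin3Bsg1. Of neuronal genes, 0 of 17 tested members rose and 3 fell (Nrcam, Snap25 and Nlgn2), at a median log2 fold change of -0.14. Their log2 fold changes were those of the synaptic protein Snap25 (-0.82 ± 0.15), Nrcam (-1.13 ± 0.21) and Nlgn2 (-0.21 ± 0.049).

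Cell-cycle genes are the class SIN3B is best known for. Of E2F and DREAM targets, 3 of 57 tested members rose (Orc1, Mcm5 and Mcm2) and 4 fell (Mybl2, Aurka, Bub1 and Tk1), at a median log2 fold change of -0.012. The shares were 5.263% higher and 7.018% lower, beside 8.62% and 7.9% over all genes tested. With single libraries left out, 1 rose without sgCtrL replicate 2 or 3 or Sin3Bsg1 replicate 1 or 2, and 6 rose without sgCtrL replicate 1. In the same way, 1 fell without sgCtrL replicate 3 and 2 fell without Sin3Bsg1 replicate 2 or 3. Without IFNγ, 1 of the 57 rose and 13 fell, at a median log2 fold change of -0.073, beside 7.89% higher and 9.33% lower over all genes. In the test of a difference between the effects with and without IFNγ, 0 of the 57 passed. Mybl2, the B-MYB factor of late cell-cycle genes, was at 142, 123 and 124 CPM in sgCtrL and 105, 106 and 106 CPM in Sin3Bsg1 (log2 fold change -0.29 ± 0.057, adjusted p = 0.00186). Among p53 targets and CDK inhibitors, 5 of 25 tested members rose (Perp, Pmaip1, Ccnd1, Ccnd2 and Rb1) and 1 fell (Sesn1), at a median log2 fold change of 0.054, with 0 falling without sgCtrL replicate 1 or Sin3Bsg1 replicate 2 or 3 and 2 without Sin3Bsg1 replicate 1. Perp, a desmosomal protein, was at 4.03, 3.66 and 3.06 CPM in sgCtrL and 7.56, 6.74 and 9.06 CPM in Sin3Bsg1 (log2 fold change 1.12 ± 0.14, adjusted p = 3.63e-05), and Pmaip1, the death protein NOXA, at 4.33, 4.57 and 3.78 CPM in sgCtrL and 7.23, 6.66 and 10.3 CPM in Sin3Bsg1 (log2 fold change 0.93 ± 0.18, adjusted p = 0.00176). Ccnd1 and Ccnd2, the D-type cyclins, rose by 0.38 ± 0.042 and 0.34 ± 0.041, with Ccnd1 at 290.2, 279 and 271 CPM in sgCtrL and 373, 362 and 355 CPM in Sin3Bsg1.

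Metabolic lists moved by small amounts. In glycolysis and the hypoxia response, 11 of 34 tested members rose and 2 fell (Epas1 and Pdk1), at a median log2 fold change of 0.069, with 17 rising without sgCtrL replicate 1. Pfkp, a phosphofructokinase, was at 61.5, 62.7 and 57.8 CPM in sgCtrL and 83.9, 84.02 and 85.7 CPM in Sin3Bsg1 (log2 fold change 0.48 ± 0.045, adjusted p = 2.42e-06), and Pfkfb3, which makes its activator, at 68.96, 73.2 and 75.8 CPM in sgCtrL and 98.4, 102 and 98.4 CPM in Sin3Bsg1 (log2 fold change 0.46 ± 0.047, adjusted p = 6.25e-06), while the hypoxia factor Epas1 fell (-0.43 ± 0.10). For respiratory chain subunits, 2 of 44 tested members rose (Sdhc and Ndufa9) and 0 fell, at a median log2 fold change of 0.072, with 1 rising without sgCtrL replicate 2 or Sin3Bsg1 replicate 2 or 3 and 5 without sgCtrL replicate 1, and 1 falling without sgCtrL replicate 2. Sdhc, a succinate dehydrogenase subunit, rose (0.23 ± 0.049), as did Ndufa9, which was lost without sgCtrL replicate 2 or Sin3Bsg1 replicate 2 or 3. In cholesterol synthesis, 3 of 28 tested members rose and 2 fell, at a median log2 fold change of 0.049, with 8 rising without sgCtrL replicate 1. The shares, 10.71% higher and 7.143% lower, were near the 8.62% and 7.9% over all genes tested. Tm7sf2, a sterol reductase, was at 9.496, 8.12 and 9.51 CPM in sgCtrL and 14.4, 13.7 and 14.8 CPM in Sin3Bsg1 (log2 fold change 0.67 ± 0.11, adjusted p = 0.000485), and Insig1, which holds SREBP in the endoplasmic reticulum, fell (-0.21 ± 0.051). For amino acid transport and the integrated stress response, 6 of 28 tested members rose and 2 fell (Cebpb and Slc7a11), at a median log2 fold change of 0.10, with 3 rising without Sin3Bsg1 replicate 2 and 10 without sgCtrL replicate 1. Aldh1l2, a mitochondrial folate enzyme, was at 24.3, 22.1 and 23.4 CPM in sgCtrL and 33.5, 31.8 and 30.96 CPM in Sin3Bsg1 (log2 fold change 0.46 ± 0.059, adjusted p = 4.55e-05). Cebpb, a factor of that response, fell but ranged widely among its controls, at 194, 125 and 84.7 CPM in sgCtrL and 50.8, 66.4 and 74.9 CPM in Sin3Bsg1 (log2 fold change -1.07 ± 0.24, adjusted p = 0.00615).

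In the Nrf2 and glutathione list, 5 of 37 tested members rose (Gsta3, Gpx3, Gstm5, Aldh1a3 and Gclc) and 8 fell, at a median log2 fold change of -0.017, with 8 rising without sgCtrL replicate 1, and 5 falling without sgCtrL replicate 1 or Sin3Bsg1 replicate 2. Cbr3, a carbonyl reductase, was at 44.6, 41.3 and 42.9 CPM in sgCtrL and 24.02, 28.4 and 27.4 CPM in Sin3Bsg1 (log2 fold change -0.69 ± 0.075, adjusted p = 1.05e-05), Srxn1, sulfiredoxin, at 105, 95.1 and 91.9 CPM in sgCtrL and 66.04, 67.7 and 69.5 CPM in Sin3Bsg1 (log2 fold change -0.52 ± 0.057, adjusted p = 1.02e-05) and Gstm1 at 282, 213 and 209 CPM in sgCtrL and 162, 164 and 167 CPM in Sin3Bsg1 (log2 fold change -0.51 ± 0.087, adjusted p = 0.000668). Gpx3, a secreted glutathione peroxidase, rose (0.68 ± 0.06). Of NF-κB subunits and feedback genes, 2 of 15 tested members rose (Tnfaip3 and Nfkbia) and 2 fell (Nfkbiz and Cyld), at a median log2 fold change of 0.12, with 1 rising without Sin3Bsg1 replicate 2 and 6 without sgCtrL replicate 1, and 0 falling without Sin3Bsg1 replicate 2 or 3 and 1 without sgCtrL replicate 1 or 3. Tnfaip3, the A20 deubiquitinase that ends the signal, was at 9.595, 9.897 and 8.74 CPM in sgCtrL and 12.4, 12.8 and 12.4 CPM in Sin3Bsg1 (log2 fold change 0.41 ± 0.09, adjusted p = 0.00474). For inflammatory cell death, 1 of 18 tested members rose (Mlkl) and 3 fell, at a median log2 fold change of 0.043, with 0 rising without sgCtrL replicate 2 or 3 or Sin3Bsg1 replicate 2 or 3 and 2 without sgCtrL replicate 1. Casp1, the caspase that matures interleukin-1β, was at 28.9, 26.9 and 26.7 CPM in sgCtrL and 19.5, 21.4 and 20.5 CPM in Sin3Bsg1 (log2 fold change -0.42 ± 0.086, adjusted p = 0.00258), and Casp12 fell by 0.24 ± 0.046. In the cytokine, collagen, hedgehog and cell death lists the median lay above 0 although more members fell than rose.

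Some members named in these counts lost their call when 1 library was left out. Without sgCtrL replicate 1, Aurka, Bub1, Cldn2, Col18a1, Cyld, Grhl2, Itgb5, Npnt, Sesn1 and Tcf7 lost their call. Without sgCtrL replicate 2, Adam8, Cldn2, Col4a4, Dhh, Hoxd4, Mcm2, Mlkl, Npnt, Orc1, Rb1, Sesn1 and Tk1 lost their call. Without sgCtrL replicate 3, Adam8, Aurka, Bub1, Col18a1, Col4a4, Cyld, Gm12250, Grhl2, Hoxd4, Mcm2, Mcm5, Mlkl, Rb1, Sesn1 and Tk1 lost their call. Without Sin3Bsg1 replicate 1, Adam8, Bub1, Cldn2, Gbp5, Gm12250, Grhl2, Hoxd4, Mcm2, Mlkl, Orc1, Rb1, Tcf7, Tk1 and Twist1 lost their call. Without Sin3Bsg1 replicate 2, Aurka, Cldn2, Col18a1, Col4a4, Cyld, Dhh, Gbp5, Gm12250, Grhl2, Gstm5, Itgb5, Mcm2, Mcm5, Mlkl, Nfkbia, Nfkbiz, Npnt, Rb1, Sesn1, Tcf7 and Tk1 lost their call. Without Sin3Bsg1 replicate 3, Adam8, Bub1, Cldn2, Col18a1, Col4a4, Cyld, Dhh, Gbp5, Gm12250, Gstm5, Hoxd4, Itgb5, Mlkl, Nfkbiz, Npnt, Sesn1, Tcf7, Tk1, Wnt4 and Zeb2 lost their call.

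**Figure D4:**
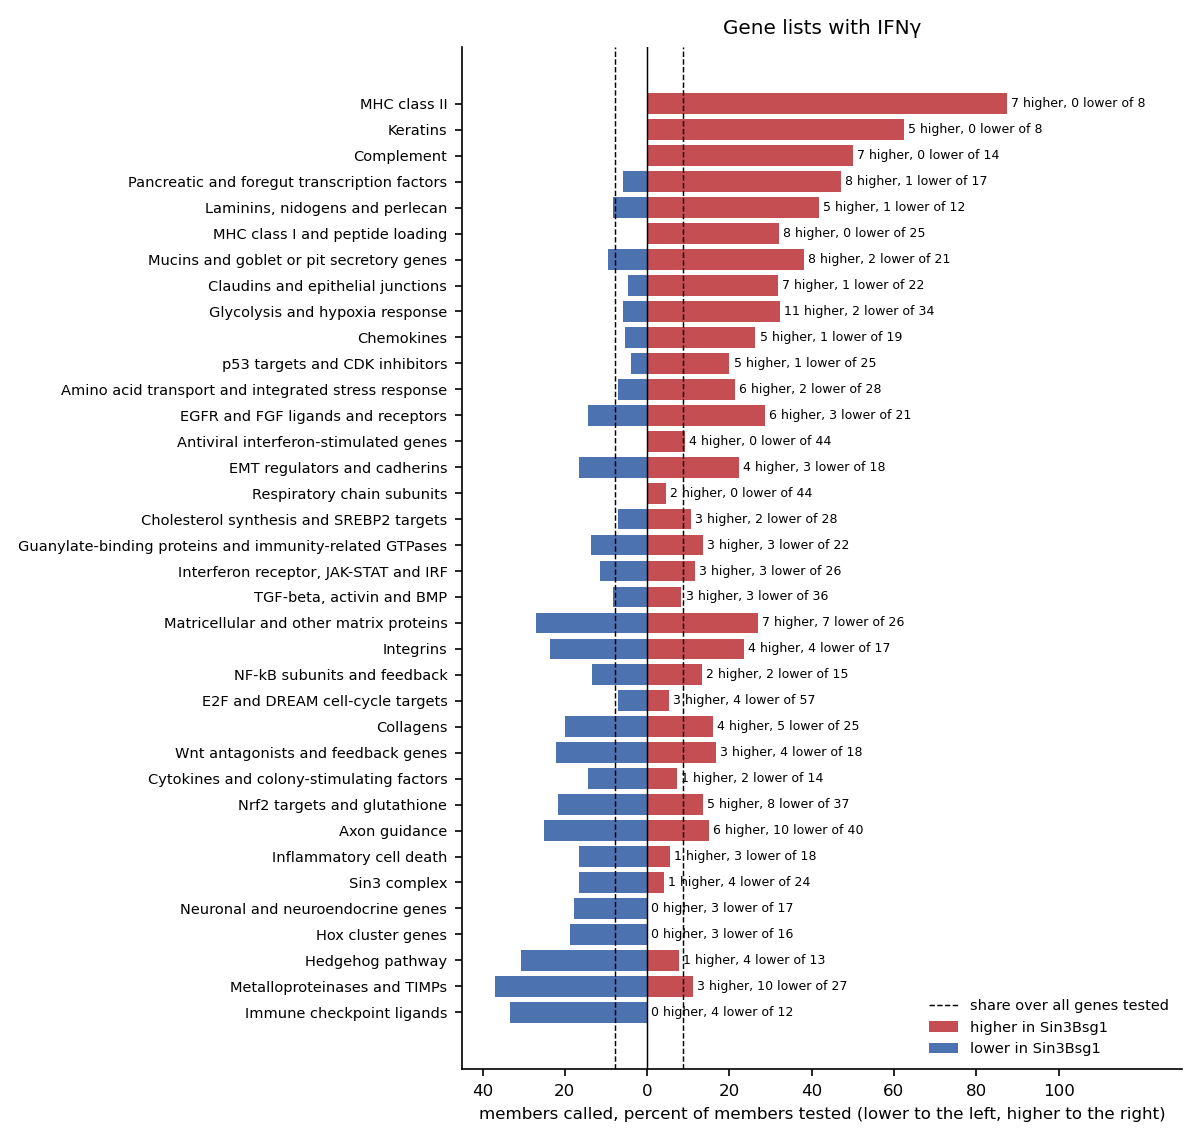
Percent of the tested members of 36 gene lists that were called higher (to the right) or lower (to the left) in Sin3Bsg1 with IFNγ, with dashed lines at the share over all genes tested (8.62% higher, 7.9% lower). MHC class II stands furthest to the right, with 7 of 8 members higher and none lower, 3 of them past the filter on low counts only through Sin3Bsg1. The list of checkpoint ligands, which also holds the enzyme Ido1 and the costimulatory ligand Icosl, stands furthest to the left with metalloproteinases and hedgehog genes.

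The libraries were checked against markers of the cells that a tumour holds. Ductal tumour cell markers were abundant, at a summed 3407 to 3964 CPM in sgCtrL and 4533 to 4761 CPM in Sin3Bsg1, and 8 of 11 tested members rose and 0 fell, at a median log2 fold change of 0.32, among them Msln, mesothelin, at 55.6, 48.5 and 50.2 CPM in sgCtrL and 112, 116 and 109.9 CPM in Sin3Bsg1. Of 12 macrophage and leukocyte markers, 6 were at 0 in all 6 libraries (Adgre1, Cd3e, Csf1r, Itgam, Lyz2 and Ptprc), and the sum was 86.8 to 92.7 CPM against 114.7 to 120.3 CPM. That difference lay in Cd14 and Mrc1, the 2 members of 3 tested that rose (by 0.41 ± 0.048 and 0.51 ± 0.054), and its part in the immune lists was not tested. Fibroblast markers summed to 209.2 to 213.5 CPM and 195.4 to 208.6 CPM with Postn at 0, and 2 of 6 tested members rose (Col1a1 and Pdgfrb) and 2 fell (Twist1 and Pdgfra), at a median log2 fold change of 0.075, with 1 falling without Sin3Bsg1 replicate 1. Endothelial markers summed to 1.81 to 2.24 CPM and 1.55 to 2.36 CPM, 5 of 10 were at 0, and none of the 4 tested passed.

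Most of what differed with IFNγ also differed without it. Without IFNγ, 2568 genes (17.2%) were called, 7.89% higher and 9.33% lower. Of the 1286 genes that rose with IFNγ, 777 also rose without it, 1 fell (Thsd7a) and 508 were not called, and 1233 had the same sign. Of the 1178 that fell, 831 also fell without IFNγ, 1 rose (Il1rn) and 346 were not called, and 1155 had the same sign. The extremes carried over closely, as 14 of the 15 largest rises and all 15 largest falls were called the same way without IFNγ. Cd74 was the exception, at 0.0539, 0.125 and 0 CPM in sgCtrL and 0, 0 and 0.04300 CPM in Sin3Bsg1 without IFNγ. Hhip, for instance, was at 22.2, 20.4 and 22.4 CPM in sgCtrL and 2.86, 2.96 and 2.02 CPM in Sin3Bsg1 without IFNγ (log2 fold change -3.05 ± 0.15, adjusted p = 1.78e-09), and Pik3ap1 at 8.95, 9.31 and 7.22 CPM in sgCtrL and 39.4, 35.8 and 36.3 CPM in Sin3Bsg1 (log2 fold change 2.12 ± 0.11, adjusted p = 2.54e-09).

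In the separate untreated experiment, with 2 libraries a side, 4549 of 14820 genes tested (30.7%) were called, 15% higher and 15.7% lower. Of the 1235 genes that rose with IFNγ and were tested there, 641 rose and 92 fell, and of the 1132 that fell with IFNγ, 622 fell and 66 rose. Called in the same direction in all 3 settings were 473 genes that rose and 493 that fell. Clu, Sall1 and Sin3b itself were called in the same direction in all 3, Clu with 1.91 ± 0.023 and Sall1 with -2.9996 ± 0.34 on the log2 scale in the untreated experiment. Some did not carry over. Col1a1 fell there (-1.62 ± 0.10) and so did Sned1 (-0.42 ± 0.04), though both rose with IFNγ. Hhip gave -0.32 ± 0.34 and did not pass. Ltbp2 and Gpx3, which rose with IFNγ, fell there (-0.99 ± 0.037 and -1.097 ± 0.11). In the experiment with IFNγ, the libraries cultured without it gave these genes log2 fold changes of 1.37 ± 0.081 for Col1a1, 0.98 ± 0.11 for Sned1, -3.05 ± 0.15 for Hhip, 0.96 ± 0.056 for Ltbp2 and 0.73 ± 0.06 for Gpx3. The untreated libraries were made as a separate set, and what else differed between the experiments was not tested.

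**Figure D5:**
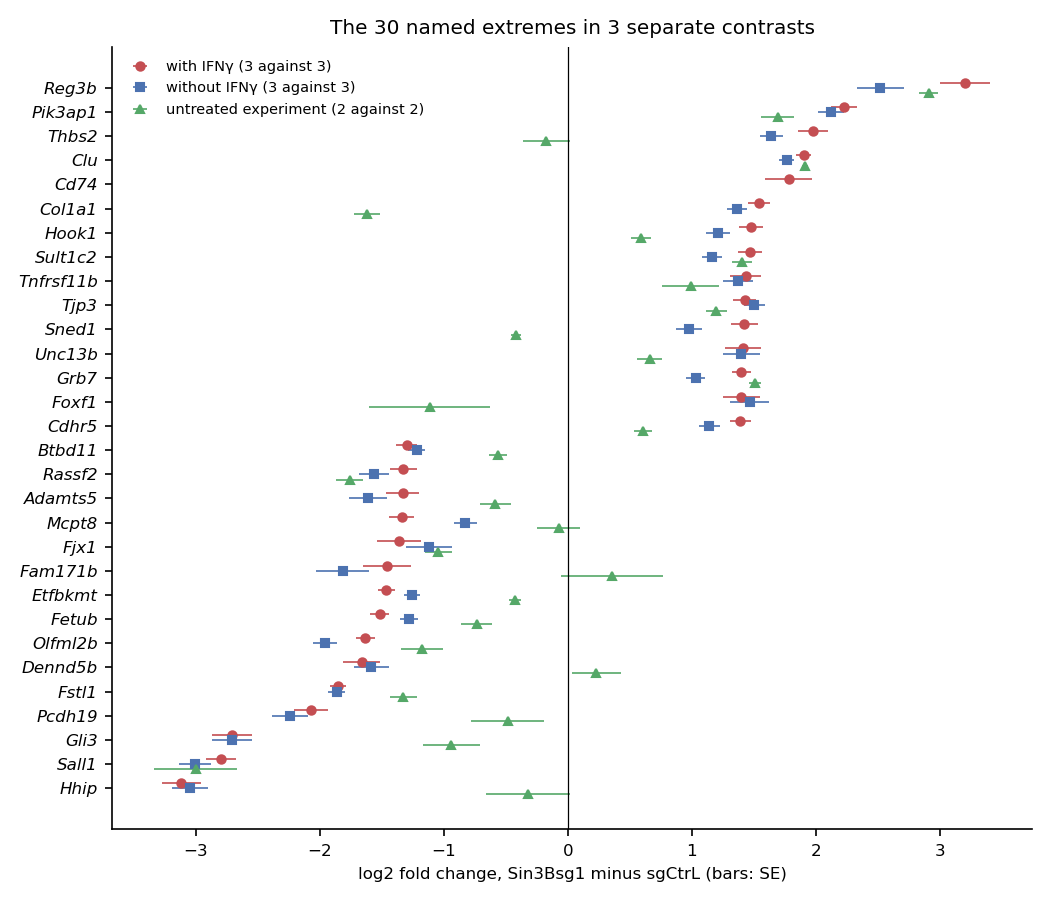
Log2 fold change, Sin3Bsg1 over sgCtrL, with its standard error, for the 15 largest rises and 15 largest falls with IFNγ, beside the same genes without IFNγ in the same experiment and in the untreated experiment. Cd74 has a point with IFNγ only. For the other genes the values with and without IFNγ lie close together, and those of the untreated experiment spread more, with Col1a1 and Sned1 on the opposite side of 0.

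The difference between the effect with IFNγ and the effect without it was tested as an interaction, and 17 genes (0.114%) passed, 12 (0.0805%) with a more positive and 5 (0.0335%) with a more negative effect under IFNγ. They included H2-Q4 and H2-K1, whose rise was smaller with IFNγ than without it. H2-K1 without IFNγ was at 14.5, 14.4 and 13.4 CPM in sgCtrL and 27.6, 27.97 and 24.98 CPM in Sin3Bsg1 (log2 fold change 0.93 ± 0.064, adjusted p = 6.3e-08), and its interaction was -0.63 ± 0.082 (adjusted p = 0.00931). Iigp1, an immunity-related GTPase, was at 49.8, 45.1 and 47.2 CPM in sgCtrL and 17.2, 19.7 and 21.5 CPM in Sin3Bsg1 without IFNγ and 1783, 1812 and 1865 CPM in sgCtrL and 1629.7, 1615 and 1619.7 CPM in Sin3Bsg1 with it. Its control libraries stood above the Sin3Bsg1 libraries without IFNγ, and the gap narrowed in ratio with it (interaction 1.12 ± 0.087, adjusted p = 2.05e-05). The count of 17 ranged from 3 without Sin3Bsg1 replicate 2 to 33 without sgCtrL replicate 1, and was 6 without sgCtrL replicate 3 and 7 without Sin3Bsg1 replicate 1 or 3.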

How the data were processed

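RNA was sequenced from KPC1199 cells carrying the Sin3Bsg1 or the control guide, and genes were read in the 12 libraries of the ± IFNγ experiment and in 4 untreated libraries. The deposited tables hold the authors' expected counts per gene, in part fractional, with mean columns that were not used. The sources differ on how they were made: the study's methods give HISAT2 to mm9 and featureCounts, whereas the submitters' processing notes list fastp, HISAT2, StringTie, DESeq2 and mm39. Tool versions, annotation and strand setting are not given in the sources used here.

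Counts were rounded to whole numbers, scaled by TMM and filtered (filterByExpr), leaving 14913 of 56980 features, and 1542 features without a symbol were kept in the totals. A mean per group over the 12 libraries was fitted by edgeR 4.0.16 (glmQLFit, glmQLFTest, R 4.3.3), with Benjamini-Hochberg adjustment and a threshold of 0.05, so all 4 groups share the estimate of spread. The contrast with IFNγ was Sin3Bsg1 minus sgCtrL. The 4 untreated libraries were fitted separately. The procedure was tested on simulated counts. Alternatives were DESeq2 1.42.0, RLE factors, library totals, no filter, at least 10 counts in every library, the 6 IFNγ libraries alone, a replicate block and leaving out each library. Replicate numbers were not used as pairs, since same-numbered libraries did not all deviate together.

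Genes named were Sin3b and Cxcl9, the 15 largest rises and falls among called genes whose groups did not overlap and whose mean reached 5 CPM, the 10 called, non-overlapping genes that gained and lost the most CPM, and up to 5 called members per list (40 lists, mean reaching 1 CPM). Other genes named (members of a count of 5 or fewer, Thsd7a, Prkacb, Sphk1, H2-Aa, H2-Eb1, Tff2, members that did not pass and genes of the interaction) were chosen after their values were seen. Members and lists were chosen with earlier results of these data known. The guide was matched to GRCm39 and promoter sequences were taken from RefSeq. Total counts per library limit precision most for genes near 1 CPM. Some genes are not reported here, though list counts include them.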

Additional observations from a re-analysis of the deposited data

Results flagged for a closer look

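The difference between the Sin3Bsg1 effect with IFNγ and the effect without it passed the test for 17 genes (edgeR's quasi-likelihood test of the interaction, adjusted p under 0.05), and each is given as the difference of log2 fold changes ± its standard error. In 5 genes the effect was more negative with IFNγ. These were the class I heavy chains H2-Q4 (-0.82 ± 0.12, from 1.32 without IFNγ to 0.50 with it) and H2-K1 (-0.63 ± 0.082, from 0.93 without IFNγ to 0.30 with it), the activin antagonist Fst (-0.58 ± 0.088, from 1.01 without IFNγ to 0.43 with it), the transglutaminase Tgm2 (-0.56 ± 0.085, from 0.69 without IFNγ to 0.14 with it) and the epithelial factor Ehf (-0.39 ± 0.062, from 0.54 without IFNγ to 0.16 with it).

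In the other 12 the effect was more positive with IFNγ. Interferon-response genes among them were Iigp1 (1.12 ± 0.087, from -1.28 without IFNγ to -0.17 with it), Gm4841 (1.04 ± 0.17, from -1.39 without IFNγ to -0.35 with it), Gbp9 (0.82 ± 0.12, from -0.96 without IFNγ to -0.13 with it) and Cmpk2 (2.26 ± 0.38, from -2.42 without IFNγ to -0.16 with it), along with Cd274 (0.47 ± 0.084, from -0.53 without IFNγ to -0.054 with it), which encodes PD-L1. These genes were lower in Sin3Bsg1 without IFNγ, and with it all but Gm4841 no longer passed the test of genotype. Cmpk2, with the largest difference, rests on few counts without IFNγ. It was there at 0.863, 0.835 and 0.802 CPM in sgCtrL and 0.228, 0.131 and 0.0860 CPM in Sin3Bsg1. The remaining genes were Sgk2 (0.94 ± 0.17, from -1.58 without IFNγ to -0.64 with it), Tubb3 (0.69 ± 0.12, from -0.65 without IFNγ to 0.047 with it), Cd28 (0.63 ± 0.11, from -0.89 without IFNγ to -0.25 with it), Adgrg7 (0.60 ± 0.10, from -0.62 without IFNγ to -0.023 with it), Shroom3 (0.45 ± 0.078, from -0.14 without IFNγ to 0.31 with it), Lap3 (0.38 ± 0.068, from -0.14 without IFNγ to 0.24 with it) and Xdh (0.34 ± 0.056, from -0.037 without IFNγ to 0.30 with it).

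Iigp1 and H2-K1 passed in all 12 fits tried, H2-Q4, Tgm2 and Gbp9 in 11, Cd274 and Lap3 in 4 and Sgk2 in 3. Cmpk2 passed in 7 of the 11 fits that held it. These counts include the main fit, by which the genes were chosen, so that pass was fixed in advance. The list moved from 3 genes without Sin3Bsg1 replicate 2 to 33 without sgCtrL replicate 1, the library that stood apart. All 17 genes passed without that library, the largest adjusted p being 0.0231 by edgeR.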

How the results depend on the processing

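Of the called genes named, 234 were run under the alternatives and none changed direction: of 3025 values, 2787 kept their side of the threshold and 238 lost it, and 173 genes kept theirs throughout. The counts of 1286 genes higher and 1178 lower were 1229 and 1259 by DESeq2, 759 and 741 with the 6 IFNγ libraries fitted alone (fewer samples to estimate the spread), and 931 to 1765 and 851 to 1180 with single libraries left out, the highest without sgCtrL replicate 1. DESeq2 shared 1188 of the higher and 1139 of the lower calls. Over all gene lists, 155 higher and 106 lower members became 123 to 211 and 84 to 102 with single libraries left out. The 17 interaction genes became 110 with no filter on low counts and 3 to 33 with single libraries left out, alternatives chosen after seeing the data. The cause was not tested.

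With the replicate number as a block, 1243 genes were higher and 1146 lower with IFNγ, 1142 and 1369 without it, 13 passed the interaction and 153 and 106 list members were called. Deviations of same-numbered libraries correlated at 0.205, 0.262 and -0.00595, so the numbers were not treated as pairs. Genes of under 500 bases, which differed most between libraries of a group, gave 0 calls higher and 8 lower of 215 tested. At these depths, class II genes near 1 CPM rest on few counts.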
